A study of Bos taurus with 16 samples.

Results

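In bovine superficial zone articular chondrocytes, 263 genes were lower with an shRNA against Creb5 (shCreb5) than with a control shRNA (shScramble) in every one of 8 paired comparisons, once 24 genes, CREB5 and PRG4 among them, had been left out by name. The pairs were 4 calves, each compared in 2 media. Members were chosen on the direction of the difference alone: a gene had at least 10 counts in 4 or more of the 16 libraries, which 13402 of 19454 genes did, and its log2(CPM + 1) was lower with shCreb5 in all 8 pairs, where CPM is the count per 1e+06 counts of the library. Of the 13402 genes, 287 met the rule (2.14%), and 134 were higher in all 8 pairs. Since these differences chose the members, they are described below without a test.

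The cells came from the surface of the femoropatellar cartilage of calves in their first weeks of life. Newly isolated cells of each calf were infected with lentivirus, kept under puromycin (0.8 µg/ml) for 5 days, and moved to low attachment plastic for 48 hours. Every library was made from cells that had been infected, selected, kept in serum and given 100 ng/ml TGFα. In condition A the medium held TGFα alone, and in condition AB it held TGFα with 20 ng/ml TGFβ2, so the groups were shScramble A, shCreb5 A, shScramble AB and shCreb5 AB, with 1 library per calf in each. Infection and selection came before the cells were divided between the media, so the 2 pairs of a calf share their infection and are not independent of each other. The knockdown rests on 1 shRNA against 1 control shRNA, so effects of that shRNA on other transcripts cannot be told apart from the loss of Creb5.

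Creb5 is a bZIP transcription factor that binds DNA through its basic region and pairs with other bZIP proteins through its leucine zipper. The superficial zone is the layer of flat cells that faces the joint cavity and makes lubricin, the product of PRG4, whose expression in these cells depends on TGFβ and EGFR signals. TGFα is a ligand of EGFR, and TGFβ2 signals through receptor kinases to the Smad proteins. An shRNA lowers the amount of its target transcript without removing it.

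Between 14710867 and 21853634 counts were assigned to genes per library. CREB5 was lower with shCreb5 in each pair. In condition A it was at 153, 69.6, 78.03 and 116 CPM with shScramble and 99.95, 43.5, 55.5 and 80.4 CPM with shCreb5, for calves 1 to 4. In condition AB the values were 80.9, 52.8, 58.2 and 79.8 CPM with shScramble and 43.3, 33.1, 26.2 and 33.9 CPM with shCreb5. The differences in log2(CPM + 1) ran from -0.48 to -1.21, with a mean of -0.77, so the transcript remained in every shCreb5 library. The labelled cell type could be checked only in part, because 11 of 36 markers had a gene symbol here. HAPLN1, a link protein of cartilage, was between 965 and 8037 CPM, and PRG4 was between 2397 and 56858 CPM. Of other cell types, VWF and TEK of endothelium summed to between 6.51 and 22.7 CPM, CD68 and CD14 of leukocytes to between 12.3 and 89.2 CPM, and LPL and FABP4 of adipocytes to between 5.91 and 66.9 CPM. COL3A1 and THY1, which fibroblasts and dedifferentiated chondrocytes express, summed to between 3888 and 6044 CPM with shScramble and between 2641 and 4174 CPM with shCreb5 in condition A, and to between 7039 and 10219 CPM and between 4595 and 8802 CPM in condition AB. THY1 by itself was between 23.1 and 518 CPM and was lower with shCreb5 in 1 of 8 pairs. The part of these cells in the results was not tested. In bulk RNA, fewer cells of a type and less RNA per cell cannot be told apart.

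**Figure D1:**
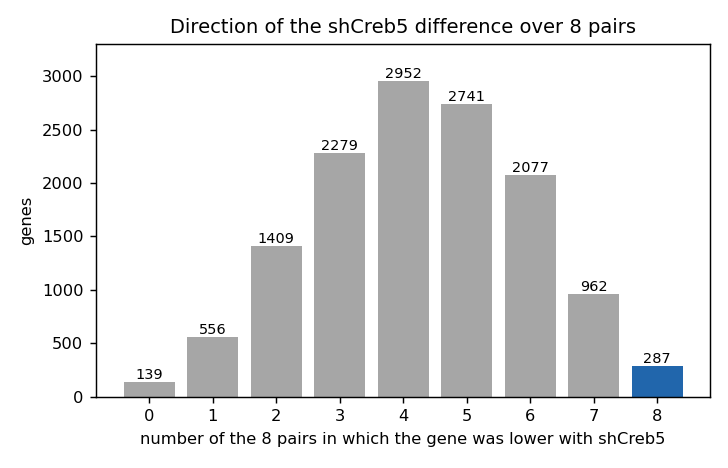
Number of genes (y axis) by the number of the 8 pairs in which the gene was lower with shCreb5 (x axis), over the 13402 genes with at least 10 counts in 4 or more libraries. The blue bar holds the 287 genes lower in all 8 pairs, and most genes lie in the middle, with 2952 lower in 4 pairs.

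The median over the 263 members of the mean difference over 8 pairs was -0.31 in log2(CPM + 1), with quartiles of -0.42 and -0.22, beside a median of -0.03 over all 13402 genes. The mean difference was at or below -1 in 6 members, at or below -0.5 in 44 and at or below -0.25 in 177. Only 8 members were lower by 0.25 or more in every pair, and 67 were lower by 0.1 or more in every pair. The members were neither rare nor abundant as a group: their mean level had a median of 15.6 CPM, against 16.3 CPM for all genes, and ranged from 0.365 to 2028 CPM. In 212 of the 263, every library had at least 10 counts, and 7 had no count in at least 1 library. No member shared its counts in all libraries with another gene.

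The size of the difference depended on the calf. In condition A the median over members was -0.23, -0.21, -0.29 and -0.31 in calves 1 to 4, and in condition AB it was -0.17, -0.18, -0.37 and -0.47. The largest difference of a member lay in calf 4 in 132 members and in calf 3 in 90, and the smallest lay in calf 1 in 102 and in calf 2 in 79. The difference in CREB5 itself was -0.61, -0.66, -0.48 and -0.53 in condition A, and -0.89, -0.66, -1.12 and -1.21 in condition AB, so that the pairs of calves 3 and 4 in condition AB were lowest both for CREB5 and for the members. In condition A the order was the opposite: calves 3 and 4 had the smallest differences in CREB5 and the largest medians over members.

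**Figure D2:**
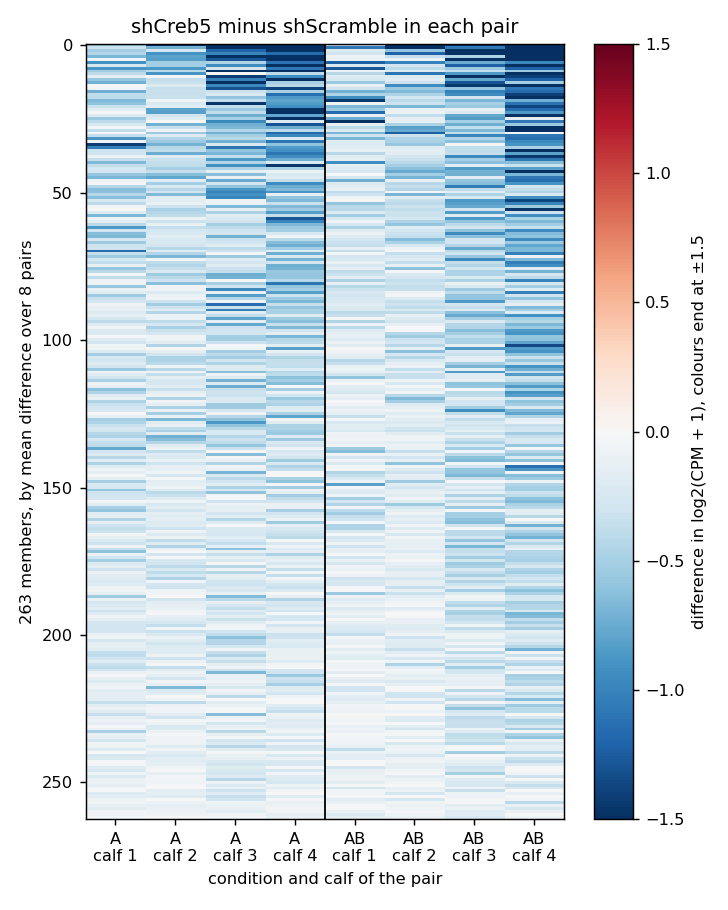
Difference in log2(CPM + 1) between shCreb5 and shScramble (color, blue for lower) for the 263 members (rows, by their mean difference) in the 8 pairs (columns, conditions A and AB of calves 1 to 4). Every cell is on the blue side because the rule required it; the darkest columns are those of calves 3 and 4, and the palest that of calf 1 in condition AB.

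The rule also depends on how libraries are scaled. With column totals, the median of all genes was not at 0 in each pair: it was -0.12 in calf 3 of condition AB and -0.08 in calf 1 of condition A, and edgeR's TMM factors moved these medians to -0.00 in both. With TMM-scaled CPM, 218 genes were lower in all 8 pairs, and 168 of the 263 members were among them. The members that no longer met the rule were most often higher in calf 1 of condition A, where 220 of 263 remained lower, and in calf 3 of condition AB, where 229 did. All 263 remained lower in both pairs of calf 2 and in calf 1 of condition AB. With each pair centered on the median of all genes, a choice made after seeing the data, 227 genes met the rule, and 167 of them were members.

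As a description of how far a direction carried from calf to calf, genes were chosen on 3 calves and read in the other. The genes lower in all pairs are each time the same 287 that met the rule, so the shares are no test of the members. CPM came from column totals, so a pair median away from 0, such as -0.12 in calf 3 of condition AB, bears on both shares. Among the 534 genes lower in the 6 pairs of calves 1, 3 and 4, 53.7% were also lower in both pairs of calf 2, against 27.9% of all genes. For calf 3 left out the shares were 56.9% of 504 genes and 40.4% of all genes, and for calf 4 left out 53.8% of 533 genes and 37.0% of all genes. With calf 1 left out, 1117 genes were lower in all pairs of calves 2, 3 and 4. Of these, 25.7% were lower in both pairs of calf 1, beside 31.0% of all genes. The shares were not computed with TMM factors, so they do not set any calf apart. The median difference of those 1117 genes in calf 1 was -0.05 in condition A, beside -0.08 for all genes, and 0.10 in condition AB, beside 0.04.

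**Figure D3:**
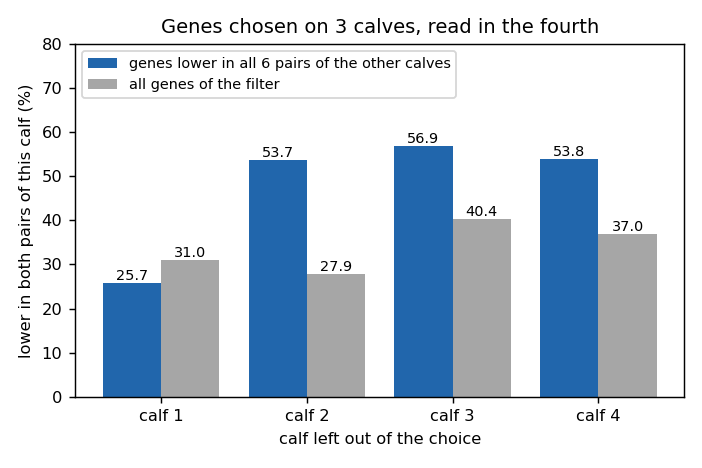
Share of genes that were lower with shCreb5 in both pairs of one calf (y axis, percent), for genes lower in the 6 pairs of the other 3 calves (blue) and for all 13402 genes (gray), with each calf left out in turn (x axis). The blue bar is above the gray bar for calves 2, 3 and 4 and below it for calf 1, at 25.7% against 31.0%. Each blue bar counts the same 287 genes that met the rule, with CPM from column totals, so the bars are no test.

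The edge of the rule was close. Among members with a symbol, the smallest difference was -0.0004 for RNASET2, -0.0007 for CDC42BPA and -0.0011 for ANGPTL6, and 52 members had a pair within 0.01 of no difference. Just outside, CLEC3A, TRIM54 and KRT6B were lower in 7 pairs and had exactly no difference in the other, and 45 of the 962 genes lower in 7 pairs missed the rule by less than 0.01. Seen by groups in place of pairs, few members separated: all 4 shCreb5 libraries lay below all 4 shScramble libraries in 11 members in condition A, beside 0.619% of all genes, and in 25 members in condition AB, beside 0.769% of all genes. AFDN, GRK5 and ZBTB12 did so in both conditions.

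Secreted regulators of proteolysis held the member with the largest difference among those with a symbol. PI15 (ENSBTAG00000019587), a secreted protein of the CRISP family that inhibits trypsin-like proteases, was at 276, 611, 945 and 658 CPM with shScramble and 218, 371, 276 and 73.98 CPM with shCreb5 in condition A, for calves 1 to 4. In condition AB it was at 65.9, 62.1, 301 and 268 CPM with shScramble and 30.9, 18.6, 144 and 10.3 CPM with shCreb5. Calf 4 had the lowest shCreb5 value in both conditions, and the groups overlapped in both. Its mean difference was -1.79 (SD 1.41, 8 pairs), and -1.11 without calf 4. HTRA3, a secreted serine protease of the HtrA family, was scarce (mean 3.68 CPM) and had a mean difference of -0.82. In calf 2 of condition AB it had 14 counts with shScramble and 5 with shCreb5. MMP23, also scarce (mean 3.27 CPM), had a mean difference of -0.61. ADAMTS6, a metalloproteinase with thrombospondin repeats, had one of -0.44, and TIMP2, an inhibitor of metalloproteinases, one of -0.29. On a list of 35 metalloproteinases, ADAMTS proteins and inhibitors, 20 had a symbol. HTRA3, MMP23, ADAMTS6 and TIMP2 were the 4 members among them, while TFPI2 and MMP2 were lower in 7 pairs.

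Genes of innate immunity differed among themselves. CFB (ENSBTAG00000046158), complement factor B, which forms the convertase of the alternative pathway, was at 89.9, 269.8, 218 and 152 CPM with shScramble and 62.2, 227, 94.5 and 38.9 CPM with shCreb5 in condition A. In condition AB the values were 21.8, 232, 286 and 119.9 CPM with shScramble and 18.6, 155, 73.4 and 17.3 CPM with shCreb5. Calves 3 and 4 had the large differences and calves 1 and 2 the small ones, with a mean of -1.17 (SD 0.94, 8 pairs). C1R, the protease that starts the classical pathway, was at 471, 185, 413 and 337 CPM with shScramble and 386, 145, 372 and 314 CPM with shCreb5 in condition A and at 108, 91.2, 236 and 154 CPM with shScramble and 90.3, 53.5, 144 and 52.5 CPM with shCreb5 in condition AB. Its values with shCreb5 were lowest in calves 2 and 4 of condition AB, and its mean difference was -0.52. Of 18 complement genes listed, 8 had a symbol, and C1R and CFB were members, while C1S was lower in 4 pairs and C2 in 2. CCL20, a chemokine for CCR6-bearing leukocytes, was scarce, at 3.02, 11.2, 5.13 and 15.1 CPM with shScramble and 1.496, 6.04, 1.15 and 1.699 CPM with shCreb5 in condition A and 0.415, 2.704, 0.873 and 4.76 CPM with shScramble and 0.341, 1.93, 0.353 and 0.359 CPM with shCreb5 in condition AB. The mean difference of CCL20 was -1.07, and -0.65 without calf 4. It was the only member among 12 cytokines and chemokines with a symbol, of 29 listed. GBP1, an interferon-induced GTPase, had a mean difference of -0.75, which was -0.49 without calf 3. IFNAR2, a chain of the receptor for type I interferon, had a mean difference of -0.35 and was the 1 member among 8 interferon-response genes with a symbol, of 33 listed.

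Growth factors and the genes they induce were next. FGF2 (ENSBTAG00000005691), a growth factor stored in the cartilage matrix, was at 509.7, 284, 674 and 461 CPM with shScramble and 335, 243, 245 and 257 CPM with shCreb5 in condition A. In condition AB it was at 343, 305, 518 and 782 CPM with shScramble and 327, 243, 366 and 361 CPM with shCreb5. The shScramble libraries of calf 3 in condition A and of calf 4 in condition AB were the highest, and the mean difference was -0.64 (SD 0.47, 8 pairs). IGFBP7, a secreted protein that binds insulin-like growth factors, had a mean difference of -0.42, and GRB10, an adaptor that restrains the insulin and IGF receptors, one of -0.58. Other genes of the insulin-like growth factor system went the other way or varied: IGFBP6 was lower in 0 of 8 pairs, with a mean difference of 0.95, IGFBP3 and IGF1R were lower in 2 pairs each (0.28 and 0.07), and IGF1 and IGFBP4 in 7 pairs each (-0.73 and -0.21). ERRFI1 (ENSBTAG00000006609), which is induced by EGFR signals and inhibits the EGFR kinase, was the most abundant member. It was at 3545, 1643, 3456 and 2919 CPM with shScramble and 3004, 1182, 2412 and 2139 CPM with shCreb5 in condition A and at 2001, 1132, 1851 and 1612 CPM with shScramble and 1762, 841, 1662 and 1287 CPM with shCreb5 in condition AB. The differences ran from -0.16 in calf 3 of condition AB to -0.52 in calf 3 of condition A, with a mean of -0.35 (SD 0.14, 8 pairs). PHLDA1, another gene induced by growth factors, had a mean difference of -0.48. They were the 2 members of the 12 EGFR and ERK response genes with a symbol, of 23 listed, and 6 of the other 10, DUSP4, DUSP5, SPRY4, EGR3, ETV4 and ETV5, were lower in 3 or fewer pairs. DUSP1, a phosphatase of MAP kinases that cAMP induces, had a mean difference of -0.55, which was -0.34 without calf 4, and was the 1 member among 8 cAMP and CREB target genes with a symbol, of 18 listed.

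Matrix and adhesion genes came in single members rather than as sets. CCN2 (ENSBTAG00000006367), a matricellular protein induced by TGFβ and by YAP and TAZ, was at 1054, 427, 1456 and 579 CPM with shScramble and 397, 261, 1261 and 381 CPM with shCreb5 in condition A. In condition AB it was at 522, 731, 862 and 922 CPM with shScramble and 453, 492, 847 and 500.4 CPM with shCreb5. Calf 3 had hardly any difference in condition AB, and with TMM scaling CCN2 was higher with shCreb5 by 0.12 in 1 pair. The mean difference was -0.58 (SD 0.44, 8 pairs). Of 22 YAP and TAZ target genes listed, 6 had a symbol and CCN2 was the member, and TGFB2, RBMS3 and MYOF were lower in 2 pairs each and F3 in 0. THBS2 (ENSBTAG00000018810), a thrombospondin that binds collagen fibrils and matrix proteases, was at 239, 191, 91.9 and 203 CPM with shScramble and 234, 165, 46.7 and 151 CPM with shCreb5 in condition A. In condition AB it was at 244, 159, 333 and 489 CPM with shScramble and 226, 81.9, 122 and 136 CPM with shCreb5. The difference was near nothing in calf 1, where TMM scaling turned a pair to 0.05 higher, and large in calves 3 and 4 of condition AB. THBS2 was 1 of 27 fibrous matrix genes with a symbol, of 44 listed, to be lower in every pair. HAPLN3, a link protein that ties hyaluronan to proteoglycans, had a mean difference of -0.37, as the 1 member among 9 cartilage matrix genes with a symbol, of 28 listed. ITGA2, the α2 subunit of a collagen-binding integrin, had one of -0.45, as the 1 member among 8 superficial zone and joint genes with a symbol, of 19 listed. No gene of the lists of AP-1 subunits, of hypertrophic cartilage or of p53 and stress response was a member, but few of their genes had a symbol, 1 of 12 in the first, 1 of 12 in the second and 5 of 22 in the third.

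Among regulators of actin and cell contacts, AFDN (ENSBTAG00000005557), the afadin that ties nectins to actin filaments, was one of the few members whose groups did not overlap. It was at 66.5, 70.8, 73.95 and 109 CPM with shScramble and 61.9, 51.98, 64.9 and 65.2 CPM with shCreb5 in condition A. In condition AB the values were 72.9, 61.6, 63.5 and 99.99 CPM with shScramble and 61.4, 56.3, 46.5 and 52.3 CPM with shCreb5. The shScramble libraries of calf 4 were the highest in both conditions, and the mean difference of -0.40 was -0.26 without that calf. The other members of this list were DOCK8, an exchange factor for Cdc42, at -0.70, RHOJ, a GTPase of the Cdc42 family, at -0.36, ARHGAP9, a GTPase-activating protein, at -0.54, SNTB1, a syntrophin, at -0.36, and ITGA2. In all, 6 of 27 genes with a symbol were members, of 39 listed, and TAGLN, TPM1, TPM2, VCL, ACTG1 and ITGB3 were lower in 1 or 2 pairs.

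Signaling through G protein-coupled receptors had 6 members among 15 genes with a symbol, of 25 listed. GRK5 (ENSBTAG00000007981), a kinase that phosphorylates active receptors, was at 37.7, 34.8, 40.7 and 32.8 CPM with shScramble and 32.4, 28.6, 24.2 and 18.7 CPM with shCreb5 in condition A. In condition AB it was at 74.1, 68.8, 81.9 and 109 CPM with shScramble and 68.5, 53.2, 47.8 and 33.4 CPM with shCreb5. All shCreb5 libraries were below all shScramble libraries within each condition, and the mean difference of -0.61 was -0.41 without calf 4. LPAR1 (ENSBTAG00000009654), a receptor for lysophosphatidic acid, was at 107, 83.4, 148 and 167 CPM with shScramble and 85.7, 68.4, 130.1 and 100.5 CPM with shCreb5 in condition A and at 86.6, 80.3, 89.8 and 112 CPM with shScramble and 67.6, 67.6, 65.8 and 64.9 CPM with shCreb5 in condition AB. The groups did not overlap in condition AB, and the mean difference was -0.42 (SD 0.22, 8 pairs). PLPP1 and PLPP3, membrane phosphatases that break down lysophosphatidic acid, had mean differences of -0.27 and -0.50, and with TMM scaling PLPP1 was higher by 0.13 in 1 pair. GPRC5B, an orphan receptor, had a mean difference of -0.67, and GNB5, a β subunit of G proteins, one of -0.34. LPAR3 and EDNRA were lower in 7 pairs.

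**Figure D4:**
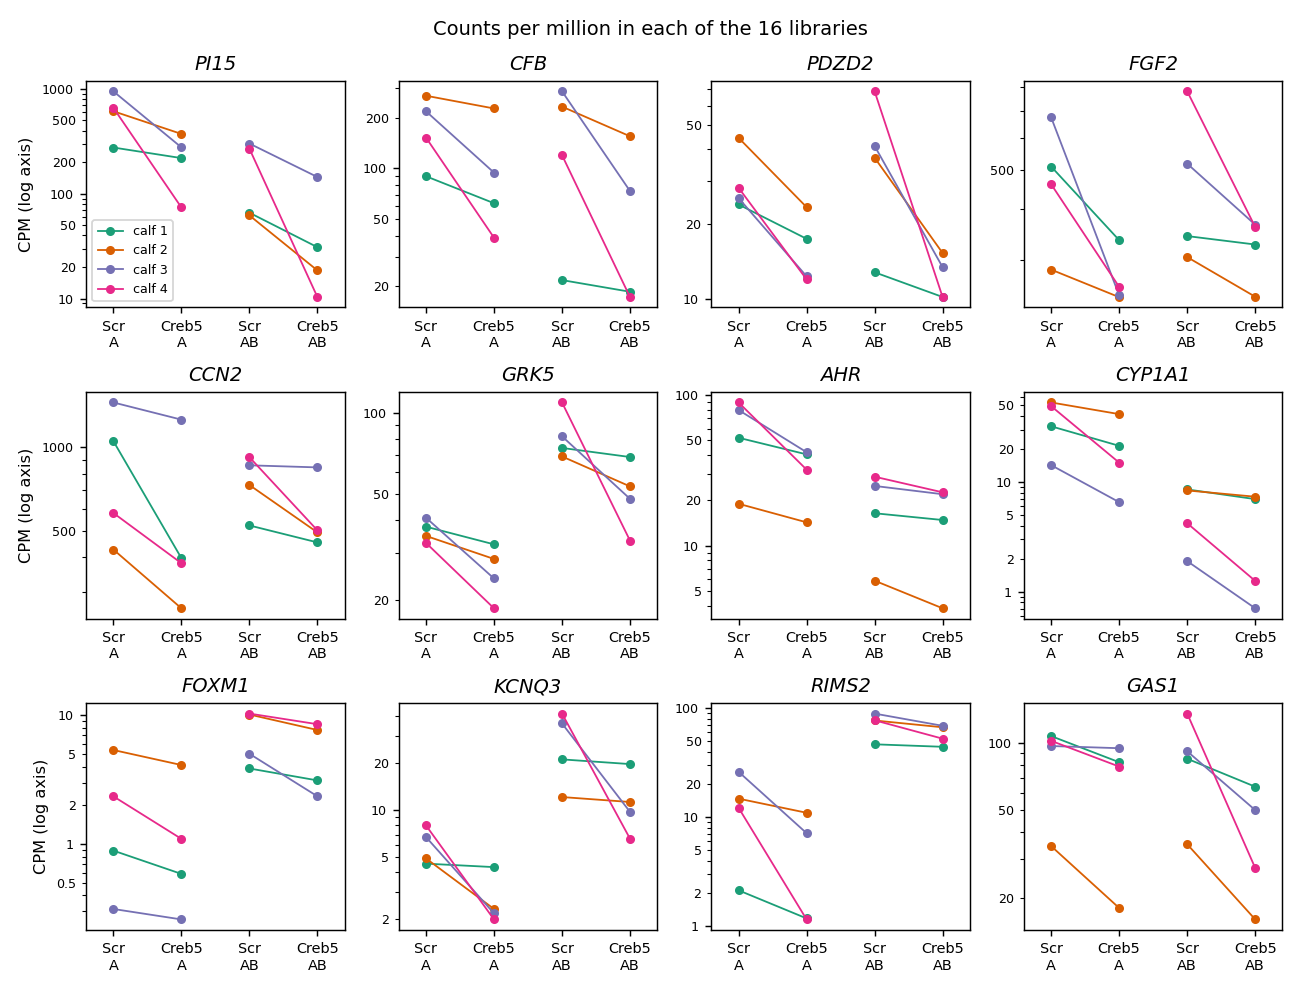
CPM (log axis) of 12 members in the 16 libraries, with shScramble (Scr) and shCreb5 (Creb5) in conditions A and AB. Each line joins the 2 libraries of a calf in 1 condition; every line slopes down because the rule required it, while its steepness differs among calves, and RIMS2 is higher in each library of condition AB than in any of condition A.

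Morphogen pathways were represented by few genes each. ROR2 (ENSBTAG00000005092), a receptor tyrosine kinase for Wnt5a, was at 25.4, 31.8, 10.7 and 26.5 CPM with shScramble and 18.5, 26.95, 6.77 and 15.4 CPM with shCreb5 in condition A. In condition AB it was at 28.9, 39.9, 20.8 and 28.3 CPM with shScramble and 25.6, 31.005, 9.53 and 22.9 CPM with shCreb5. Calf 3 had the lowest values in all 4 groups, and the mean difference was -0.48 (SD 0.30, 8 pairs). With VANGL1, a membrane protein of planar cell polarity, at -0.28, it was 1 of 2 members of 11 Wnt pathway genes with a symbol, of 39 listed. GAS1 (ENSBTAG00000046803), a membrane protein that helps Hedgehog ligands bind their receptor, was at 108, 34.4, 97.2 and 103 CPM with shScramble and 82.2, 18.1, 95.003 and 78.5 CPM with shCreb5 in condition A. In condition AB it was at 85.2, 35.1, 92.03 and 136 CPM with shScramble and 63.7, 16.1, 50.001 and 27.4 CPM with shCreb5. Calf 2 had the lowest level in each group, the difference was larger in condition AB, and its mean was -0.79 (SD 0.69, 8 pairs), although with TMM scaling 1 pair was higher by 0.03. GAS1 was the 1 member among 5 Hedgehog genes with a symbol, of 13 listed, and CDON, another coreceptor, was lower in 7 pairs. CHRD, chordin, an antagonist of BMP ligands, and TLL1, a tolloid-like protease that cuts chordin, had mean differences of -0.42 and -0.64, and were the 2 members of 18 BMP and TGFβ genes with a symbol, of 36 listed.

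Several members are better known from excitable cells. KCNQ3 (ENSBTAG00000020667), a voltage-gated potassium channel subunit, was at 4.55, 4.92, 6.75 and 8.01 CPM with shScramble and 4.33, 2.33, 2.19 and 1.999 CPM with shCreb5 in condition A. In condition AB it was at 21.2, 12.2, 36.02 and 41.7 CPM with shScramble and 19.8, 11.3, 9.76 and 6.57 CPM with shCreb5. Calves 3 and 4 had the large differences, and calf 1 hardly any, where TMM scaling turned a pair to 0.01 higher; the mean was -1.03 (SD 0.91, 8 pairs). KCNQ5, its relative, had a mean difference of -0.57, and all 4 KCNE and KCNQ genes with a symbol, of 10 listed, were lower in 7 or 8 pairs. Over all genes, 7.18% were lower in 7 pairs and 2.14% in 8, but symbols came from tables ranked on the same knockdown. RIMS2 (ENSBTAG00000003827), a scaffold of the presynaptic active zone, was at 2.13, 14.8, 26.2 and 12.2 CPM with shScramble and 1.18, 10.98, 7.13 and 1.15 CPM with shCreb5 in condition A. In condition AB it was at 46.7, 77.4, 89.5 and 77.7 CPM with shScramble and 44.3, 66.996, 69.1 and 52.6 CPM with shCreb5. The level was higher in every library of condition AB than in any of condition A, and the mean difference between shRNAs was -0.81 (SD 0.89, 8 pairs). PDZD2 (ENSBTAG00000014455), a protein with several PDZ domains, was at 24.1, 44.6, 25.5 and 28.1 CPM with shScramble and 17.5, 23.5, 12.4 and 12.05 CPM with shCreb5 in condition A and at 12.9, 37.1, 41.3 and 68.5 CPM with shScramble and 10.2, 15.4, 13.5 and 10.2 CPM with shCreb5 in condition AB. Its groups did not overlap in condition A, and its mean difference was -1.15 (SD 0.72, 8 pairs). SEMA3D and SEMA6A, a secreted and a membrane semaphorin, had mean differences of -0.52 and -0.57, the latter -0.32 without calf 4, and were the 2 members of 12 semaphorin and plexin genes with a symbol, of 27 listed. STIM1, the calcium sensor of the endoplasmic reticulum, was at -0.33 and was the 1 member among 12 calcium entry and mechanosensitive channel genes with a symbol, of 17 listed.

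The aryl hydrocarbon receptor and its best-known target were both members. AHR (ENSBTAG00000007746), a ligand-activated transcription factor, was at 52.1, 19.02, 79.7 and 89.4 CPM with shScramble and 40.4, 14.3, 41.8 and 32.04 CPM with shCreb5 in condition A. In condition AB it was at 16.5, 5.87, 24.97 and 28.8 CPM with shScramble and 14.8, 3.85, 22.001 and 22.6 CPM with shCreb5. Calf 2 had the lowest level in each group, and the mean difference was -0.53 (SD 0.44, 8 pairs). CYP1A1 (ENSBTAG00000001021), the cytochrome P450 that AHR induces, was at 32.3, 53.3, 14.3 and 49.3 CPM with shScramble and 21.4, 41.7, 6.56 and 15.05 CPM with shCreb5 in condition A and at 8.57, 8.39, 1.901 and 4.21 CPM with shScramble and 6.99, 7.36, 0.706 and 1.25 CPM with shCreb5 in condition AB. It was lower by -0.75 on average, in log2(CPM + 1), and the groups overlapped in both conditions. Of 8 genes listed for this receptor, 5 had a symbol: CYP1B1 was lower in 7 pairs, TIPARP in 5 and NQO1 in 2.

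Transcription factors and cell cycle genes came next. CREB1 (ENSBTAG00000005474), a bZIP protein related to Creb5 in name and domain, was at 18.4, 13.8, 26.4 and 21.6 CPM with shScramble and 15.1, 12.03, 19.2 and 19.2 CPM with shCreb5 in condition A and at 13.4, 13.6, 18.5 and 21.005 CPM with shScramble and 12.4, 11.9, 15.8 and 18.3 CPM with shCreb5 in condition AB. Its mean difference was -0.22 (SD 0.10, 8 pairs), one of the smaller ones among named members, and it was the 1 member among 4 CREB and ATF genes with a symbol, of 15 listed. HOXD9, NFIA and NFIB, regulators of limb pattern and of gene expression in many tissues, had mean differences of -0.29, -0.35 and -0.17, and were the 3 members of 8 homeobox and limb genes with a symbol, of 27 listed. FOXM1 (ENSBTAG00000015875), which drives genes of mitosis, was at 0.891, 5.39, 0.314 and 2.35 CPM with shScramble and 0.588, 4.12, 0.2603 and 1.0997 CPM with shCreb5 in condition A. In condition AB it was at 3.87, 10.2, 5.04 and 10.3 CPM with shScramble and 3.13, 7.702, 2.35 and 8.54 CPM with shCreb5. Calves 2 and 4 had the higher levels, and the mean difference was -0.38 (SD 0.26, 8 pairs). ESPL1, the separase that frees sister chromatids, TACC3 of the mitotic spindle, IQGAP3 and TCF19 had mean differences between -0.41 and -0.37, and these 5 were the members of 22 cell cycle genes with a symbol, of 45 listed. With RRM2, UHRF1, TYMS, CCNB2, CCNE2, PSRC1 and KIF20A, lower in 7 pairs each, 12 of the 22 were lower in 7 or 8 pairs. The shares over all genes, with or without a symbol, were 7.18% for 7 pairs and 2.14% for 8. MKI67 was lower in 6 pairs and TOP2A and PCNA in 5, and those lower in the fewest pairs were HMGB2 in 4 and CCND1 in 3.

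Of the remaining named members, the choline transporter FLVCR2, the nuclear corepressor HR, the kinase MAPK10, the Ras-related RERG and MOCOS, which activates molybdenum enzymes, had mean differences of -0.86, -0.77, -0.65, -0.63 and -0.62. HR was at -0.49 without calf 3, and MOCOS at -0.39 without calf 4. STAC2 and MYO5C were lower by 0.23 or more in every pair, with mean differences of -0.42 and -0.54. TPT1, an abundant protein of growing cells, had a mean difference of -0.22 and was higher in at least 1 pair, by up to 0.06, with TMM scaling. Under that scaling DOCK8, MOCOS, IQGAP3, SLCO4A1, VANGL1, GRB10, TACC3, NFIB, STIM1, RNASET2, CDC42BPA and ANGPTL6 were also higher in at least 1 pair, by up to 0.06, so that 52 of the 70 named members met the rule. Gene lists could not be compared by their shares, either with each other or with all genes. Symbols were taken from tables ranked on the same knockdown, and they covered 181 of the 263 members but 3154 of the 19454 genes.

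Among the 82 members without a symbol was the one with the largest mean difference of all, ENSBTAG00000010433, picked out after its values were seen. It was at 10.9, 434, 93.99 and 259 CPM with shScramble and 7.16, 139, 25.8 and 21.2 CPM with shCreb5 in condition A. In condition AB it was at 1.94, 222, 45.6 and 121 CPM with shScramble and 1.42, 53.5, 12.1 and 5.86 CPM with shCreb5. Calf 1 had the lowest level in each group, and the difference in calf 4 reached -3.55 in condition A and -4.16 in condition AB. The mean over 8 pairs was -1.98.

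The response to TGFβ2 was not used by the rule, so it could be tested. All 16 libraries entered 1 fit with the calf as a block, and the response was condition AB against A, averaged over both shRNAs, with TMM scaling. Of the 263 members, 63 rose (24%) and 85 fell (32.3%) at an adjusted p under 0.05, and 115 were not called. Over all 13372 genes tested, 20.5% rose and 19.4% fell. The median log2 fold change was -0.09 over members and -0.00 over all genes. The split depends on the scaling: with column totals in place of TMM factors, a choice made after seeing the data, the median over all genes moved to -0.18 and that over members to -0.26, and 46 members rose and 129 fell, beside 1556 and 4841 of all genes. Changes of at least 2-fold were found for 28 members that rose (10.6%) and 17 that fell (6.46%). The shares of all genes at this size were not counted, so these are not read as a trait of the members.

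RIMS2 had the largest rise, with log2 fold change 3.39, standard error 0.36, edgeR adjusted p = 9.88e-06. KCNQ3 rose in 8 of 8 comparisons of a calf and shRNA (log2 fold change 2.30, standard error 0.27, edgeR adjusted p = 2.72e-05). The cell cycle members rose together, FOXM1 with log2 fold change 2.25, standard error 0.29, edgeR adjusted p = 5.19e-05, IQGAP3 by 2.10, ESPL1 by 1.75, TACC3 by 1.57 and TCF19 by 1.19 on the log2 scale, as did 21 of the 22 cell cycle genes with a symbol, with CCND1 not called at 0.47. Genes of matrix and BMP signaling were also among those that rose: ADAMTS6 (log2 fold change 2.11, standard error 0.14, edgeR adjusted p = 3.78e-07), CHRD (log2 fold change 1.93, standard error 0.12, edgeR adjusted p = 3.43e-07), TLL1 by 1.64, HAPLN3 by 1.49 and ITGA2 by 1.34. GRK5 rose by 1.26, PHLDA1 by 1.34, SNTB1 by 0.74, GRB10 by 0.73, KCNQ5 by 0.70, SEMA3D by 0.66, ROR2 by 0.58 and VANGL1 by 0.56, the last not called without calf 2 (edgeR adjusted p = 0.0741). TRIM10, a RING finger protein that was scarce here, rose by 2.03 in 7 of 8 comparisons. These genes were higher with TGFβ2, and lower with shCreb5 within each medium.

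Among those that fell, CYP1A1 had the largest change, with log2 fold change -2.46, standard error 0.25, edgeR adjusted p = 8.63e-06, and AHR fell as well (log2 fold change -1.25, standard error 0.13, edgeR adjusted p = 1.11e-05), both in 8 of 8 comparisons. PI15 fell with log2 fold change -2.13, standard error 0.47, edgeR adjusted p = 0.00287. CCL20 (log2 fold change -1.82, standard error 0.33, edgeR adjusted p = 0.000682) and C1R (log2 fold change -1.38, standard error 0.14, edgeR adjusted p = 9.05e-06) fell in 8 of 8 comparisons too, as did SLCO4A1, an organic anion transporter, with -1.69, and GATA3, a transcription factor below 1 CPM on average here, with -1.61. DDO, the D-aspartate oxidase, had -1.61, falling in 7 of 8. DOCK8, MAPK10, HTRA3, PLPP3, MOCOS, NFIB, MYO5C, HR, STIM1, DUSP1 and ERRFI1 fell with log2 fold changes between -1.49 and -0.53. For HTRA3 the edgeR adjusted p of 0.0163 became 0.208 without calf 1 and 0.0966 without calf 2. Smaller falls were found for SEMA6A, HOXD9, NFIA, PLPP1 and TIMP2, between -0.43 and -0.25. SEMA6A was no longer called without calf 1, 2 or 3 (edgeR adjusted p between 0.0581 and 0.152), TIMP2 without calf 1, 2 or 4 (0.0864 to 0.193) and NFIA without calf 1 or 2 (0.0927 and 0.0901). Of the 8 complement genes with a symbol 6 fell and none rose, and of the 12 EGFR and ERK genes 7 fell and 2 rose.

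**Figure D5:**
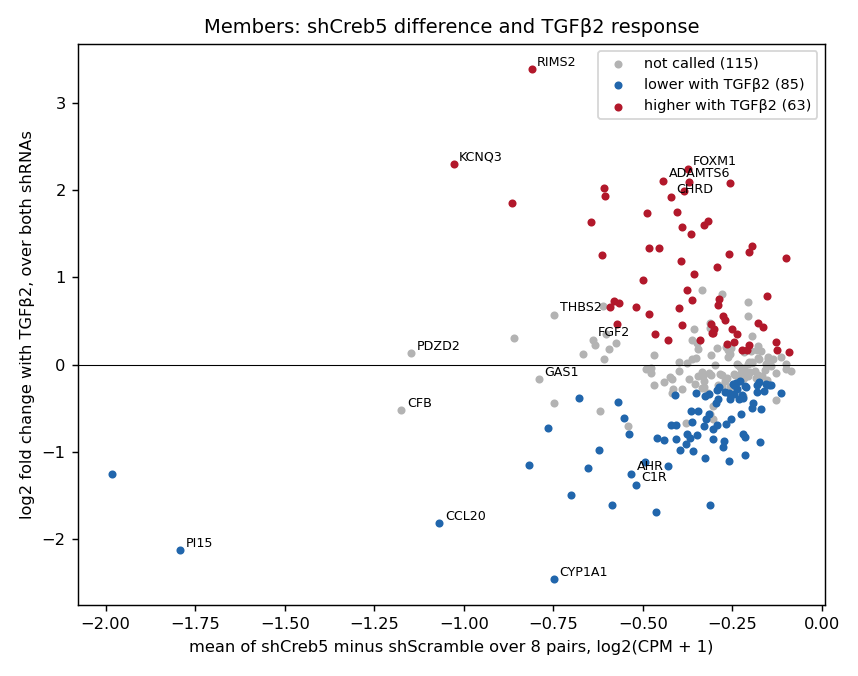
TGFβ2 response of the 263 members (y axis, log2 fold change of condition AB against A over both shRNAs) by their mean difference between shCreb5 and shScramble (x axis, log2(CPM + 1), below 0 by the rule). Red points are the 63 members that rose, blue points the 85 that fell and gray points the 115 not called; members with a large shCreb5 difference lie on both sides, from RIMS2 at 3.39 to CYP1A1 at -2.46.

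Several members with a large knockdown difference were not called for TGFβ2. FGF2 had a log2 fold change of 0.28 (edgeR adjusted p = 0.143), CFB one of -0.52 (0.174), CCN2 one of 0.24 (0.376), PDZD2 one of 0.13 (0.689), THBS2 one of 0.57 (0.113) and GAS1 one of -0.17 (0.415), all by edgeR. CREB1 (-0.04), AFDN (0.03), IFNAR2 (0.17), LPAR1 (-0.28), GPRC5B (0.12) and IGFBP7 (-0.32) were not called either. A p above the threshold does not show that TGFβ2 left these genes alone.

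The difference between media in the effect of shCreb5 is built from the same 8 differences that chose the members, and requiring each of them to be below 0 limits how far the media could differ. It is therefore described without a test for members. In condition A the median over members was -0.29, against -0.31 in condition AB, and 150 of 263 had the larger mean difference in condition AB. Over all 13372 genes, edgeR called none for this difference (0%), with 4.27% at an unadjusted p under 0.05, and DESeq2 called 10. PPP1R37 (ENSBTAG00000018834), a regulatory subunit of protein phosphatase 1, was at 32.7, 21.6, 27.8 and 31.7 CPM with shScramble and 24.6, 20.04, 25.8 and 25.04 CPM with shCreb5 in condition A. In condition AB it was at 35.8, 27.8, 41.4 and 47.7 CPM with shScramble and 23.4, 21.03, 23.001 and 23.3 CPM with shCreb5. Its groups did not overlap in condition AB, and the difference of the differences was -0.49. The same value was -0.75 for GAS1 and -0.60 for C1R. PPP1R37, GAS1 and C1R are given because they had the smallest p for this difference among members with a symbol. None of them was called over all genes, and values picked in this way do not show that the media differed. RIMS2, with mean differences of -1.32 without and -0.30 with TGFβ2, had a value of 1.14.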

How the data were processed

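RNA-Seq libraries of 4 calves were analyzed, 1 per calf for each of 2 shRNAs in 2 media, 16 in all. Groups and calf numbers came from the sample labels. The authors ran bcbio-nextgen (version 1.2.4, bovine genome UMD 3.1) with Salmon for transcripts, summed these to Ensembl genes with tximport, and deposited estimated counts per gene, as whole numbers without scaling. There are 19454 genes, and the library totals lie between 14710867 and 21853634 (median 19721435).

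CPM are counts scaled by the column total, and the pseudocount was 1, so differences of low genes are understated. Members and gene lists were chosen with earlier results of these data known. The rule leaves out 26 genes by name, CREB5 and PRG4 among them, of which 24 were lower in all 8 pairs. The TGFβ2 response and the difference of the knockdown effect between media were tested with edgeR 4.0.16 (R 4.3.3) in all 16 libraries, with filterByExpr, TMM factors (0.842 to 1.23), the quasi-likelihood test, a block for the calf and p-values adjusted by Benjamini and Hochberg's method over 13372 genes; a gene was called at an adjusted p under 0.05. Both use the libraries that chose the members. The TGFβ2 response is not the contrast that did so, but the difference between media is built from it and is given for members without a test.

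Libraries with the same number were paired: the table's column names give the animal, and over 24 same-numbered pairs of libraries the correlation of deviations from group means was between 0.132 and 0.837 (median 0.670), against -0.516 to 0.204 over 72 pairs with different numbers. No library was a copy of another: the chi-square of counts per degree of freedom was at least 73.96 over 24 pairs. With the calf as a block, p-values measure the spread left between libraries after each calf's own level is taken out. Both shRNAs of a calf enter as separate comparisons, although they share the animal, and there were 4 calves.

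Named members were, among those with a symbol, the 20 with the lowest mean difference, the 10 with the lowest weakest pair, the 5 most abundant, the 6 with the largest rise and the 6 with the largest fall with TGFβ2, the 3 with the smallest p for the difference between media, every member on a fixed list of genes, and the 3 on either side of the rule, 70 members in all. Symbols came from 1998 lines of each of the study's tables of differential expression, whose fold changes and p-values were not used, and covered 3154 genes, 181 of the members. Alternatives were other scalings, filters and pseudocounts, DESeq2 1.42.0, limma-voom (limma 3.58.1), other blocks, each shRNA alone, and 3 of the 4 calves at a time. The fits were first tested on simulated counts with known changes. Sequences of genes and promoters were not used here.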

Additional observations from a re-analysis of the deposited data

Results flagged for a closer look

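In sets of 4 values, 1 per calf, 1 value lay far from the other 3 in 9 of 224 sets, by Dixon's criterion at the 95% level. Chance flags about 1 in 20 sets of values drawn freely, but not of differences that a rule kept below 0, so no chance count is given. Of the 9, 5 were such differences between shCreb5 and shScramble, in log2(CPM + 1): GPRC5B in calf 4 of condition A (-1.13), RERG in calf 4 of condition AB (-1.37), CHRD in calf 1 of condition A (-0.64), SEMA6A in calf 4 of condition AB (-1.75) and CDC42BPA in calf 3 of condition A (-0.34), each lower than in the other calves. The others were levels. CCN2 was high in the shCreb5 library of calf 3 in condition AB, at 847 CPM. GAS1 was low in calf 2 of condition A, at 34.4 CPM with shScramble and 18.1 CPM with shCreb5. CCL20 was high in the shCreb5 library of calf 2 in condition AB, at 1.93 CPM.

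The response of GAS1 to TGFβ2 pointed in opposite directions with the 2 shRNAs. In TMM-scaled log2 CPM it was 0.00, 0.15, 0.03 and 0.53 in calves 1 to 4 with shScramble, a mean of 0.18, and -0.16, -0.08, -0.72 and -1.30 with shCreb5, a mean of -0.56. With column totals the shScramble values were -0.34, 0.03, -0.08 and 0.40, so that the rise with shScramble held in 2 of 4 calves, while the shCreb5 values stayed below 0 in 4 of 4. The difference between shRNAs in this response is built from the values that chose the members and is given without a test.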

How the results depend on the processing

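The choice of members depends most on which calves and which scaling are used. With 1 calf left out, between 504 and 1117 genes were lower in all remaining pairs, which follows in part from having fewer pairs. Filters on low counts gave 232 to 298 genes, and another pseudocount cannot change a sign. The median of the members in calf 1 of condition A was -0.15 with TMM scaling, and with a pseudocount of 0.1 the medians in calves 3 and 4 of condition A were -0.39 and -0.37.

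The calf block matters for the TGFβ2 response. With no replicate block, 1243 genes rose and 1092 fell, and of members 35 and 41, since differences between calves then count as error; 19 of 48 calls of named members were lost. A block for each calf and shRNA, DESeq2, RLE factors and limma-voom lost none of the 48. In the shScramble libraries alone, with fewer libraries, 1378 genes rose and 1178 fell. Of the 89 members called there, 47 fell, beside 85 of the 148 called with all libraries. With column totals 1556 genes rose, 4841 fell and 129 members fell, the calls of PPP1R37 and GNB5 were lost, and CDC42BPA went from 0.17 to -0.000339. With a calf left out, 50 to 57 members rose and 69 to 75 fell, while 4030 to 4499 of all genes were called, against 5326 with every calf. Of the 48 named calls, 7 were lost without at least 1 calf. For the difference between media, DESeq2 called 6 genes higher and 4 lower; the cause was not tested, and no other alternative called a gene.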
